A study of Mus musculus with 10 samples.

Results

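Glycolysis turns glucose into pyruvate through a chain of enzymes, several of which exist as isoforms encoded by separate genes. Lactate dehydrogenase turns pyruvate into lactate, and monocarboxylate transporters carry the lactate out of the cell together with their chaperone basigin. Pancreatic carcinomas are known for a high rate of glycolysis, and many of its genes are known targets of the hypoxia-inducible factors (HIF). The 32 genes described here are the enzymes of this chain, their isoforms, the bifunctional regulators of phosphofructokinase (PFKFB) and the lactate exporters. They were taken by symbol from the 55359 genes of the deposited table, through gene identifiers named by GENCODE M21, and all 32 were found.

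Murine KPC K8484 pancreatic cancer cells had been injected into the pancreas of 10-week-old C57BL/6 mice (C57BL/6 J in the study's methods). The orthotopic tumors came from 5 normoglycemic mice given regular water (CTRL) and 5 given water with 30% dextrose (D30) over 14 days. The deposited columns carry the letters N and T with a number, which here name the tumors (N1, N2, N4, N5 and N6 for CTRL, T1, T2, T4, T5 and T7 for D30), in this order wherever values are listed. The labels give KPC K8484 cells as the source of every tumor, yet their titles call the tumors PDX, a term for grafts of patient tumors. The study describes the tumors of its transcriptome analysis as KPC orthotopic tumors, 5 per group, and the mouse line is taken here as the source of all 10. Why the titles use the other term is not explained. Values are normalized counts, that is, reads divided by 1 size factor per tumor.

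Between 29192261 and 42122304 reads per tumor lay behind these values. Keratins 8, 18 and 19 and E-cadherin marked the tumors as epithelial, whereas Epcam and Sox9, also epithelial markers, were low. Epcam stood at only 15.9 to 191 normalized counts in CTRL and 0 to 62.5 in D30. Sox9 stood at 18.6 to 67.6 in CTRL and 23.6 to 354 in D30, where T5 was highest. T5 stood apart. Its hemoglobin and other erythroid markers summed to 188041 normalized counts against 4148 to 12422 in the other tumors, its 8 neutrophil markers summed to 16757 against 706 to 6234, and it had the fewest detected genes (20482). T4 had the lowest sum of 8 fibroblast markers (28178 against 53552 to 137709). It also had the highest sum of 8 macrophage markers (72810 against 12346 to 61697), of which Lyz2 alone gave 46217. The macrophage markers did not move together in T4. Lyz2, Cd68, C1qb and C1qc were highest there, and Mrc1 and C1qa lay within the CTRL range. Csf1r was lowest in T4 (693 against 1136 to 3528), and Adgre1, at 427, lay below all CTRL tumors (489 to 858). The results below are therefore also given without T5, or without T4 and T5, where this changed them.

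To show the regulatory sequence next to the members that moved together, the 250 bases before the annotated start of transcription were read for 3 genes higher in D30, Aldoc, Pgk1 and Ldha, and for Hk2, whose share of hexokinase differed. RefSeq (GRCm38.p6) gives 30 of the 32 genes such a stretch, from 48 annotated starts in all. Galm and Bsg were not among these genes. Capitals mark the HIF core motif, ACGTG or GCGTG on either strand, and for Aldoc and Ldha the first of the annotated starts is shown.
Aldoc, chr11:78322823-78323072, plus strand: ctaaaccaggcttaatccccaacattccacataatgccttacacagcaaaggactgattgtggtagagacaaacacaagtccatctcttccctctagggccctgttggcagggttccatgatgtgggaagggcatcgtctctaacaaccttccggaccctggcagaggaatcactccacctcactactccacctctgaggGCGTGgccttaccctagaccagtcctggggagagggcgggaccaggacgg
Pgk1, chrX:106186850-106187099, plus strand: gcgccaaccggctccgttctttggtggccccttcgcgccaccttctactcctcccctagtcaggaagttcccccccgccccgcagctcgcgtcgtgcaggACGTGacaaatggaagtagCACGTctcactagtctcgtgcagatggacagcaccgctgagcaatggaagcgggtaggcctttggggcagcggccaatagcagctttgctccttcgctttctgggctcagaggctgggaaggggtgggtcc
Ldha, chr7:46845554-46845803, plus strand: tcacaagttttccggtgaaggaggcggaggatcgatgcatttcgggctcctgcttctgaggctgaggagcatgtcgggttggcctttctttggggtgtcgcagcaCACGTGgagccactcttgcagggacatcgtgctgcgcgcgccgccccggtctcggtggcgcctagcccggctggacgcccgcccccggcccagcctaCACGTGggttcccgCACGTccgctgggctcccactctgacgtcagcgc
Hk2, chr6:82774455-82774704, minus strand: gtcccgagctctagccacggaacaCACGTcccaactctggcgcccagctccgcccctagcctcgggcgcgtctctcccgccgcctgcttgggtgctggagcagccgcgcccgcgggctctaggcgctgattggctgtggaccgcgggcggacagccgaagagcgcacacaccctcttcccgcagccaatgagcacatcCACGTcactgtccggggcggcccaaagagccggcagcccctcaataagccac
The stretch of Ldha holds 5 matches that overlap in part, that of Pgk1 and of Hk2 each 2, and that of Aldoc 1, which starts 50 bases before the start of transcription. The core motif was found in 33 of the 48 member promoters (68.8%) and in 38.6% of all 32851 promoters of the same length. The E-box CACGTG, which contains ACGTG and overlaps it, was found in 5 of the 48 (10.4%) and in 6.02% of all. The GC box GGGCGG was found in 21 of the 48 (43.8%) and in 32.7% of all. Some of the 48 stretches overlap, so that a site can count more than once, and the other annotated start of Ldha holds 1 match. The core motif also lay before Pfkm, Eno3 and Pfkfb1, whose D30 means were lower. It was absent before Gpi1 and Tpi1, whose D30 means were higher. A match here is a run of letters and not a binding site, and its relation to the differences was not tested.

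Most of the chain stood higher in the D30 tumors. Of the 32 genes, all of which passed the filter on low values, 25 had a positive log2 fold change (78.1%, against 45.3% of all 24560 genes tested). Their median log2 fold change was 0.71, against -0.065 over all genes tested. Galm, Aldoc, Pgk1, Ldha and Bsg rose, by 1.13 (Bsg, a fold of 2.19) to 1.58 (Aldoc) on the log2 scale. They were the only members past an adjusted p of 0.05 in limma's test across all genes, 5 of 32 (15.6%), where 2.76% of all genes were called, 1.4% as higher and 1.36% as lower. No member was called lower by limma, with 2 of the negative ones (Pfkm and Eno3) at an unadjusted p under 0.05, and none was called lower by edgeR or DESeq2 either. At that unadjusted level 17 of the 32 (53.1%) passed, against 17.3% of all genes. In 6 of the 32 (18.8%) every D30 tumor lay beyond every CTRL tumor, against 6.19% of all genes. edgeR on the recovered reads called the same 5 members against 4.13% of its genes, and DESeq2 called 13 (40.6%) against 8.17%. The 8 that DESeq2 added were Hk2, Hk3, Gpi1, Pfkp, Aldoa, Tpi1, Pgam1 and Slc16a3, all higher.

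**Figure D1:**
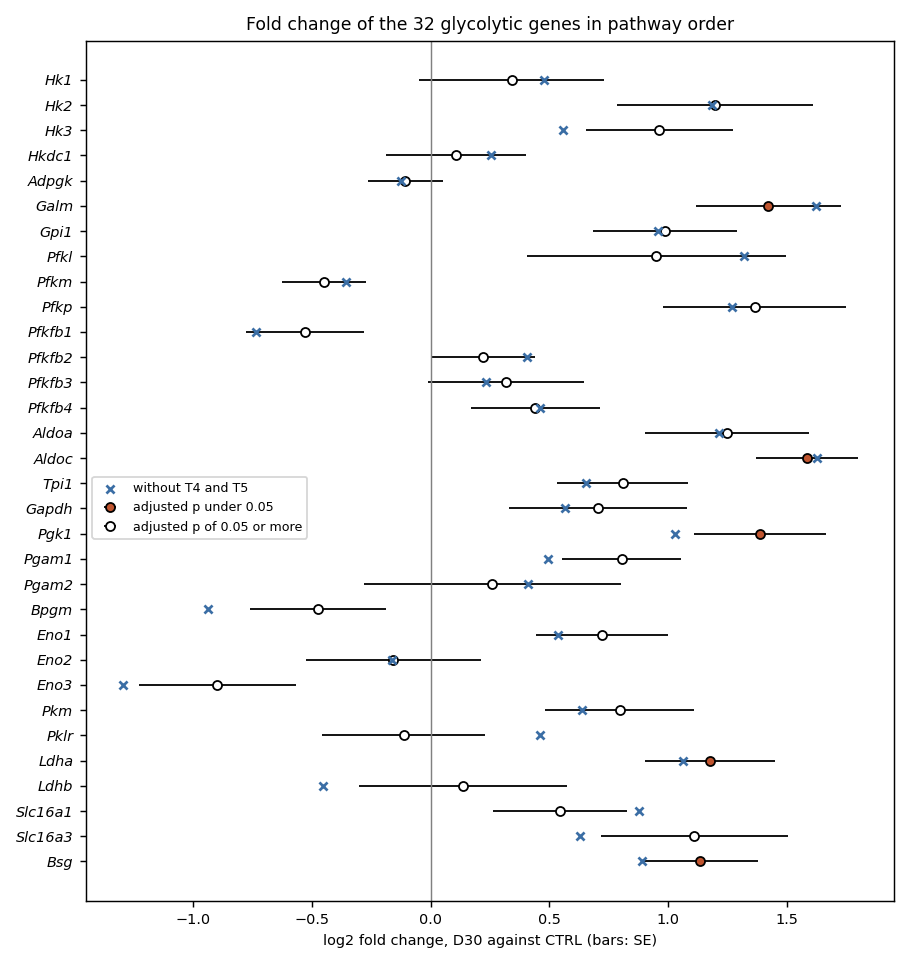
Log2 fold change of D30 against CTRL for the 32 genes in pathway order (circles, bars are SE, 5 tumors per group). Filled circles mark the 5 genes with an adjusted p under 0.05, and crosses give the value without T4 and T5, which for Eno3, Bpgm and Pfkfb1 lies farther below 0.

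Aldoc, the brain-type isoform of aldolase, showed the clearest difference. It stood at 1169, 796, 1017, 603 and 801 in the CTRL tumors and 2287, 2769, 1978, 3032 and 2912 in the D30 tumors. The groups were separated by a gap, with the lowest D30 tumor well above the highest CTRL tumor. This gave a log2 fold change of 1.58 (SE 0.21, adjusted p = 0.00239), and it passed the test in every fit that left out 1 tumor, with adjusted p values of 0.000475 to 0.0118. Aldoa, the ubiquitous isoform and by far the more abundant, stood at 17278, 21908, 37076, 18178 and 20671 in the CTRL tumors and 46043, 51357, 26129, 112301 and 56900.1 in the D30 tumors. T4 lay among the CTRL values here. Its log2 fold change was 1.25 (SE 0.34, unadjusted p = 0.00309, adjusted p = 0.0756), and it passed without T4 (adjusted p = 0.00765).

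Pgk1, phosphoglycerate kinase, makes the first ATP that glycolysis returns. It stood at 17786, 14109.9, 23979, 12289 and 14986 in the CTRL tumors and 35569, 28438, 50271, 74628 and 35487 in the D30 tumors. All D30 tumors exceeded all CTRL tumors, and T4 was second only to T5. As a log2 fold change this came to 1.38 (SE 0.28, adjusted p = 0.0183). Without N2, N5 or N6 in turn the adjusted p rose to at most 0.0674, with the log2 fold change within 1.18 to 1.53 over all fits that left out 1 tumor.

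Ldha, the main lactate dehydrogenase subunit of glycolytic tumors, stood at 26908, 26513, 44789, 20439 and 26826 in the CTRL tumors and 54128, 54381, 47031, 108388 and 68470.5 in the D30 tumors. N4 came close to the lowest D30 tumor, but the groups did not overlap. The log2 fold change was 1.17 (SE 0.27, adjusted p = 0.0371). It missed the threshold in all fits that left out 1 tumor other than N4 or T4, where the adjusted p reached 0.113 and the log2 fold change stayed within 0.98 to 1.34. Ldhb, the subunit known for the reverse reaction, was rare, at 35.4 to 102 in CTRL and 43.2 to 158 in D30 normalized counts, and its log2 fold change was 0.14 (SE 0.44, unadjusted p = 0.76, adjusted p = 0.908).

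Bsg, which encodes basigin and brings the lactate transporters to the cell surface, stood at 25048, 20833, 31025, 20188 and 20929 in the CTRL tumors and 36920.0, 40244, 50420.1, 85585 and 53769 in the D30 tumors. The groups did not overlap. This gave a log2 fold change of 1.13 (SE 0.25, adjusted p = 0.0281), within 0.94 to 1.25 when 1 tumor was left out, and the call was lost without N1, N2, N5, N6 or T7 (adjusted p of at most 0.0977). Slc16a3 (MCT4), known as the exporter of glycolytic cells, stood at 585, 1199, 1566, 648 and 969 in the CTRL tumors and 1283, 1495, 1928, 5634 and 1549.9 in the D30 tumors. T5 alone was far above the rest. Its log2 fold change was 1.11 (SE 0.39, unadjusted p = 0.0145, adjusted p = 0.166) and 0.74 without T5. Slc16a1 (MCT1) stood at 3339 ± 715 in CTRL and 5101 ± 1910.2 in D30 (mean ± SD, n = 5 per group), with a log2 fold change of 0.54 (SE 0.28, unadjusted p = 0.0764, adjusted p = 0.35). T5 was its lowest tumor of all 10, at 2370 normalized counts, and without T4 and T5 Slc16a1 passed the test at 0.88 (adjusted p = 0.0146).

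Galm, aldose mutarotase, interconverts the anomers of glucose before the hexokinase step. It stood at 849, 278, 553, 478 and 549 in the CTRL tumors and 1371, 1895, 1581, 773 and 1490.2 in the D30 tumors. T5, highest in most of the chain, was the lowest D30 tumor here and lay below N1. As a log2 fold change this came to 1.42 (SE 0.31, adjusted p = 0.0255), and 1.63 without T5 (adjusted p = 0.0103). The call was lost without N2, N4, N5, N6, T1, T2 or T7 (adjusted p of at most 0.073).

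**Figure D2:**
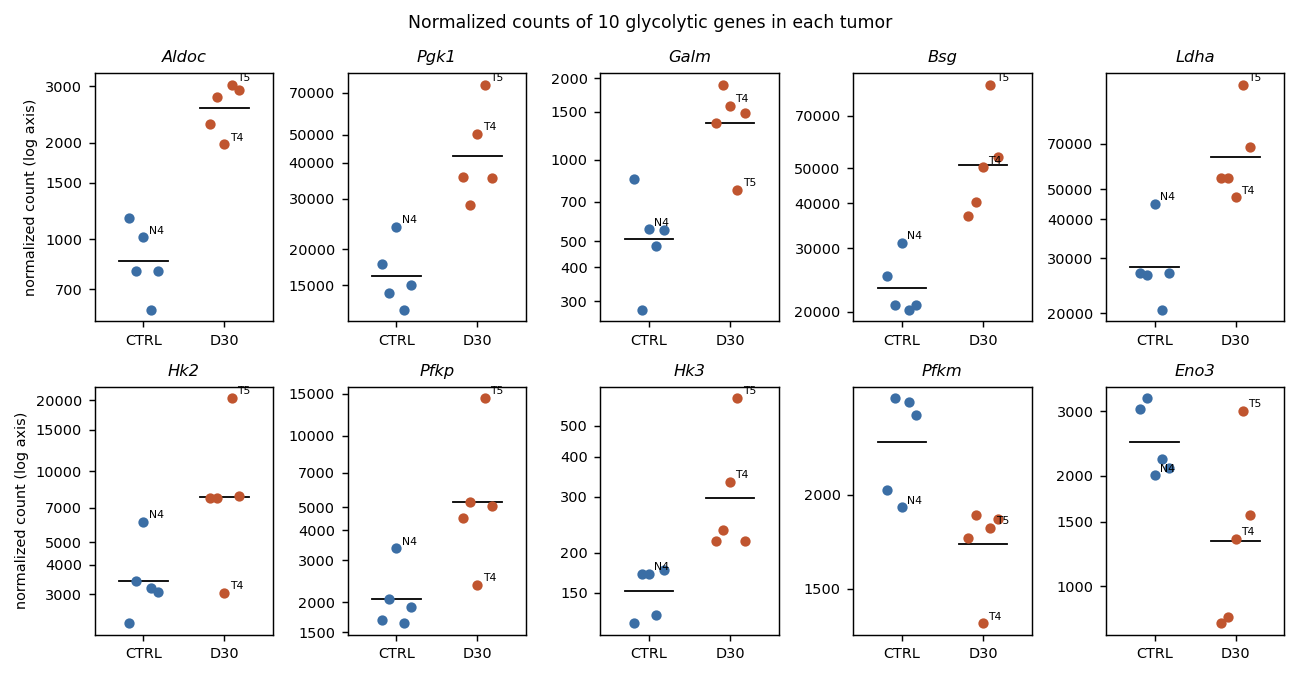
Normalized counts of 10 glycolytic genes on a log axis, 1 point per tumor, with the geometric mean of each group as a bar (5 CTRL and 5 D30 tumors). Aldoc, Pgk1, Bsg, Ldha, Hk3 and Pfkm show no overlap between groups, and T4, T5 and N4 are marked.

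At the hexokinase step, which traps glucose in the cell, no isoform passed the test. Hk2, the inducible isoform of many tumors, stood at 2253, 3412, 6099, 3179.9 and 3073 in the CTRL tumors and 7674, 7684, 3039.6, 20529 and 7862 in the D30 tumors. T5 lay far above and T4 within the CTRL range. The log2 fold change was 1.20 (SE 0.41, unadjusted p = 0.0122, adjusted p = 0.153), with an adjusted p of 0.0135 without T4. Hk1, the housekeeping isoform, stood at 3796, 5989.8, 7251, 5839 and 5453 in the CTRL tumors and 7942, 7577, 2373, 15711 and 7639 in the D30 tumors. T4 was the lowest of all 10 and T5 the highest. Its log2 fold change was 0.34 (SE 0.39, unadjusted p = 0.397, adjusted p = 0.705).

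The rarer hexokinases were a small part of the step. Hk3, an isoform known from myeloid cells, stood at 119.9, 171, 172, 127 and 177 in the CTRL tumors and 217, 236, 333, 612 and 217 in the D30 tumors. Every D30 tumor exceeded every CTRL tumor, yet the log2 fold change was 0.96 (SE 0.31, unadjusted p = 0.00842, adjusted p = 0.127). The 8 neutrophil markers summed to 3260.2, 832, 1264, 706 and 866 in CTRL and 847, 6234, 3611, 16757 and 1588 in D30, with T5 highest for both, and the sum of the 8 macrophage markers was lowest in T5. The macrophage sum was highest in T4 (72810), the second highest tumor for Hk3. N1, the lowest tumor for Hk3, had the highest neutrophil sum of the CTRL tumors. The part of these cells in the value of Hk3 was not tested. The stretch that encodes Hk3 also overlaps Unc5a on the opposite strand, and the sources used here do not say whether counting used the strand. Hkdc1 stood at 696 ± 136 in CTRL and 794 ± 300.5 in D30 and had a log2 fold change of 0.11 (SE 0.29, unadjusted p = 0.719, adjusted p = 0.889). Adpgk, the ADP-dependent glucokinase, was the most even of all members, at 1391 to 1873 in CTRL and 1307 to 1506 in D30, and its log2 fold change was -0.11 (SE 0.16, unadjusted p = 0.514, adjusted p = 0.782).

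Hk2 made up a larger share of hexokinase in D30. Counted per kilobase of exon, its share of the sum of Hk1, Hk2, Hk3 and Hkdc1 was 39.4, 39.7, 49.8, 37.5 and 38% in the CTRL tumors and 53.6, 53, 53.7, 60.7 and 53.9% in the D30 tumors. No D30 tumor fell below 53.0% and no CTRL tumor exceeded 49.8%. T4 and T5, the lowest and the highest D30 tumor in Hk2 counts, both stood above all CTRL tumors for this share, a ratio within a tumor that its size factor does not change. The mean share was 40.9% ± 5.07 (SD, n = 5) in CTRL and 55.0% ± 3.22 in D30. The two-sided exact permutation p was 0.00794, the smallest that 5 tumors against 5 allow, and 0.0714 after adjustment over the 9 isoform shares compared, so that it did not pass the correction. Hk1 had the smaller share of the same step in D30, with 41.4 to 48.8% in CTRL and 29.3 to 38.8% in D30.

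Gpi1, phosphohexose isomerase, stood at 10976, 13572, 21410.4, 12346 and 13565 in the CTRL tumors and 22052, 28678, 15456, 52655 and 31676 in the D30 tumors. T4 lay within the CTRL range, and the rest of the D30 tumors lay above all CTRL tumors. This gave a log2 fold change of 0.99 (SE 0.30, unadjusted p = 0.00618, adjusted p = 0.109), with an adjusted p of 0.0137 without T4.

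Phosphofructokinase, the main control point of the chain, comes as a liver, a muscle and a platelet isoform. Pfkp, the platelet isoform, stood at 1689.5, 2054, 3373, 1629 and 1917 in the CTRL tumors and 4504, 5282, 2371, 14409.6 and 5068 in the D30 tumors. Only T4 overlapped with CTRL. As a log2 fold change this came to 1.36 (SE 0.38, unadjusted p = 0.00358, adjusted p = 0.0817). Pfkl, the liver isoform and the most abundant per kilobase in both groups, stood at 3162, 5679.7, 9020.4, 5500.2 and 5456 in the CTRL tumors and 12439, 12824, 1999.8, 25775 and 15823 in the D30 tumors. T4 was the lowest and T5 the highest of all 10 tumors. The log2 fold change was therefore uncertain, 0.95 (SE 0.54, unadjusted p = 0.105, adjusted p = 0.402), and without T4 it passed the test (1.55, adjusted p = 0.00643).

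Pfkm, the muscle isoform, pointed the other way. It stood at 2029, 2687, 1923, 2651 and 2551 in the CTRL tumors and 1754, 1882, 1349.8, 1807 and 1858 in the D30 tumors. Every D30 tumor lay below every CTRL tumor, but the difference was small and missed the threshold, at -0.45 (SE 0.18, unadjusted p = 0.0243, adjusted p = 0.211), and it stayed above it in all fits that left out 1 tumor (lowest adjusted p = 0.166). Senp1 overlaps Pfkm on the opposite strand. The share of Pfkp in the step, per kilobase, was 10.4, 8.48, 11.6, 6.99 and 8.29% in the CTRL tumors and 12.3, 13.7, 20.1, 19.6 and 11.4% in the D30 tumors. T4 and T5 were highest, and the groups touched only where T7 lay below N4. The mean share was 9.15% ± 1.82 in CTRL and 15.4% ± 4.12 in D30 (SD, n = 5, exact permutation p = 0.0159, adjusted p = 0.0714 over the 9 shares). Without T4 and T5 the difference was 3.34 percentage points (exact permutation p = 0.0714, where the smallest possible is 0.0357).

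The 4 PFKFB enzymes set the level of the sugar bisphosphate that activates phosphofructokinase. None of them passed in limma, edgeR or DESeq2, and 0 of the 4 had an unadjusted limma p under 0.05. Pfkfb3, the isoform known from proliferating cells, stood at 639 to 1489.9 in CTRL and 828 to 2892 in D30, and Pfkfb4, another HIF-responsive isoform, at 307 to 481 in CTRL and 311 to 880.3 in D30. Their log2 fold changes were 0.32 (adjusted p = 0.672) and 0.44 (adjusted p = 0.433). Pfkfb2 stood at 454 to 786 in CTRL and 562 to 935 in D30, with a log2 fold change of 0.22 (adjusted p = 0.658). Pfkfb1 stood at 196 to 319.8 in CTRL and 135 to 254 in D30 and leaned the other way, with a log2 fold change of -0.53 (adjusted p = 0.295). The share of Pfkfb3 in the 4 was 39.9% ± 9.25 in CTRL and 42.3% ± 8.44 in D30 (SD, n = 5, exact permutation p = 0.683).

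Below aldolase, Tpi1 and Gapdh were far above the rest in T5 and near CTRL in T4. Tpi1, triosephosphate isomerase, stood at 25638, 25677, 34326, 20900.4 and 23231 in the CTRL tumors and 36809.9, 37032, 31519.9, 87280.4 and 48014 in the D30 tumors. T4 was below N4 but above the other CTRL tumors. This gave a log2 fold change of 0.81 (SE 0.27, unadjusted p = 0.0114, adjusted p = 0.149). Gapdh, the most abundant member, stood at 66688, 83426, 125729, 71146 and 74592 in the CTRL tumors and 124816, 107993, 68351, 347275 and 132943 in the D30 tumors. T5 was the highest by a wide margin, T1 and T2 lay just below N4, and T4 lay within the CTRL range. As a log2 fold change this came to 0.70 (SE 0.37, unadjusted p = 0.0823, adjusted p = 0.361), falling to 0.36 without T5.

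Phosphoglycerate mutase was almost wholly Pgam1. It stood at 6345, 6716, 9104, 5267 and 5907 in the CTRL tumors and 9074, 8628, 11944, 20744 and 10075 in the D30 tumors. T1 and T2 lay just below N4, and T4 was the second highest. The log2 fold change was 0.80 (SE 0.25, unadjusted p = 0.00694, adjusted p = 0.115). Pgam2, the muscle isoform, stood at 22.1 to 46.9 in CTRL and 9.25 to 103 in D30, at most 2.06% of the step per kilobase, with a log2 fold change of 0.26 (adjusted p = 0.851).

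Bpgm makes the bisphosphoglycerate of red cells. It stood at 1119 to 1895 in CTRL and 659.8 to 1556 in D30, with a log2 fold change of -0.47 (SE 0.29, unadjusted p = 0.123, adjusted p = 0.429). T1, T2 and T7 lay at 742, 660 and 675, below all CTRL tumors, whereas T4 and T5 lay at 1531 and 1556. The 7 erythroid markers, none of them called, were highest in T5. Without T4 and T5 Bpgm passed the test as lower in D30, with a log2 fold change of -0.94 (adjusted p = 0.00573). The part of red cells in this value was not tested.

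The enolase isoforms pointed in opposite directions, neither past the threshold. Eno1, the ubiquitous isoform, stood at 20833, 23036, 31676, 18427 and 19249 in the CTRL tumors and 33156, 28457, 26792, 73149 and 35380.4 in the D30 tumors. T5 was again far above. Its log2 fold change was 0.72 (SE 0.28, unadjusted p = 0.0226, adjusted p = 0.201). Eno1 shares reads with the near-identical retrogene Eno1b, which took counts equal to 16.9 to 19.5% of those of Eno1, so that the split of reads between them is uncertain. Eno3, the muscle isoform, stood at 3033, 3262, 2005, 2219 and 2106 in the CTRL tumors and 792, 825, 1346, 3005 and 1568 in the D30 tumors. T5 was within the CTRL range, while the other D30 tumors lay below all CTRL tumors. This gave a log2 fold change of -0.90 (SE 0.33, unadjusted p = 0.0175, adjusted p = 0.18), and Eno3 passed the test without T5, at -1.19 (adjusted p = 0.0267). The defining muscle myosins Myh1, Myh2 and Myh4 were at 0 in all 10 tumors, and the 10 skeletal muscle markers summed to 64.6 to 97.5 in CTRL and 99.7 to 181 in D30.

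As a share of enolase per kilobase, Eno3 made up 16.3 to 31.0% in CTRL and 6.87 to 13.4% in D30, without overlap and with T5 inside the D30 range. This share was chosen after its values were seen and is given without a test. Eno2, the neuronal isoform, stood at 52.2 to 110.4 in CTRL and 45.1 to 124 in D30 normalized counts, with a log2 fold change of -0.16 (adjusted p = 0.871). Its share was 0.325% ± 0.0976 in CTRL and 0.216% ± 0.0707 in D30 (SD, n = 5, exact permutation p = 0.0873, adjusted p = 0.196 over the 9 shares).

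Pkm, pyruvate kinase of most tissues, stood at 34384, 43291, 59667, 34391 and 38728 in the CTRL tumors and 58248, 59657, 45788, 155649 and 75260.3 in the D30 tumors. T5 was far above, T4 lay within the CTRL range, and T1 and T2 lay beside N4. As a log2 fold change this came to 0.80 (SE 0.31, unadjusted p = 0.0243, adjusted p = 0.211). The table gives 1 value per gene, so that the PKM1 and PKM2 forms of Pkm were not told apart. Pklr, the liver and red-cell isoform, stood at 914 to 1511 in CTRL and 490.4 to 1827 in D30 normalized counts, with a log2 fold change of -0.11 (adjusted p = 0.901). The 7 hepatocyte markers, mostly Ttr, summed to 1107 to 3577 in CTRL and 527 to 1256 in D30, with the defining Alb at 13.7 to 59.3 and 0 to 1.15, and Hcn3 overlaps Pklr on the opposite strand. The share of Pklr in pyruvate kinase was 4.36% ± 1.47 in CTRL and 2.73% ± 1.60 in D30 (SD, n = 5, exact permutation p = 0.143).

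The other isoform shares overlapped between the groups, that of Ldhb only through T4. Aldoc made up 3.49% ± 1.28 of aldolase in CTRL and 4.38% ± 1.41 in D30 (exact permutation p = 0.325, n = 5 per group), as Aldoa stood higher along with it. Pgam2 made up 1.17% ± 0.514 and 0.899% ± 0.422 of its step (exact permutation p = 0.492). Ldhb made up 0.571% ± 0.168 and 0.315% ± 0.224 of lactate dehydrogenase (exact permutation p = 0.0873, adjusted p = 0.196 over the 9 shares). Without T4, at 0.705%, the difference was -0.353 percentage points (exact permutation p = 0.0159). As T4 alone overlapped CTRL, leaving it out separated the groups fully. That p is thus the smallest these tumors allow, was fixed by the choice of T4, and adds no support. Slc16a3 made up 19.8% ± 6.32 and 28.4% ± 21.7 of the transporter pair (exact permutation p = 0.548). T5 set that last difference, at 66.4% against 12.1 to 25.0% in the other D30 tumors, and without T5 it was -0.837 percentage points.

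**Figure D3:**
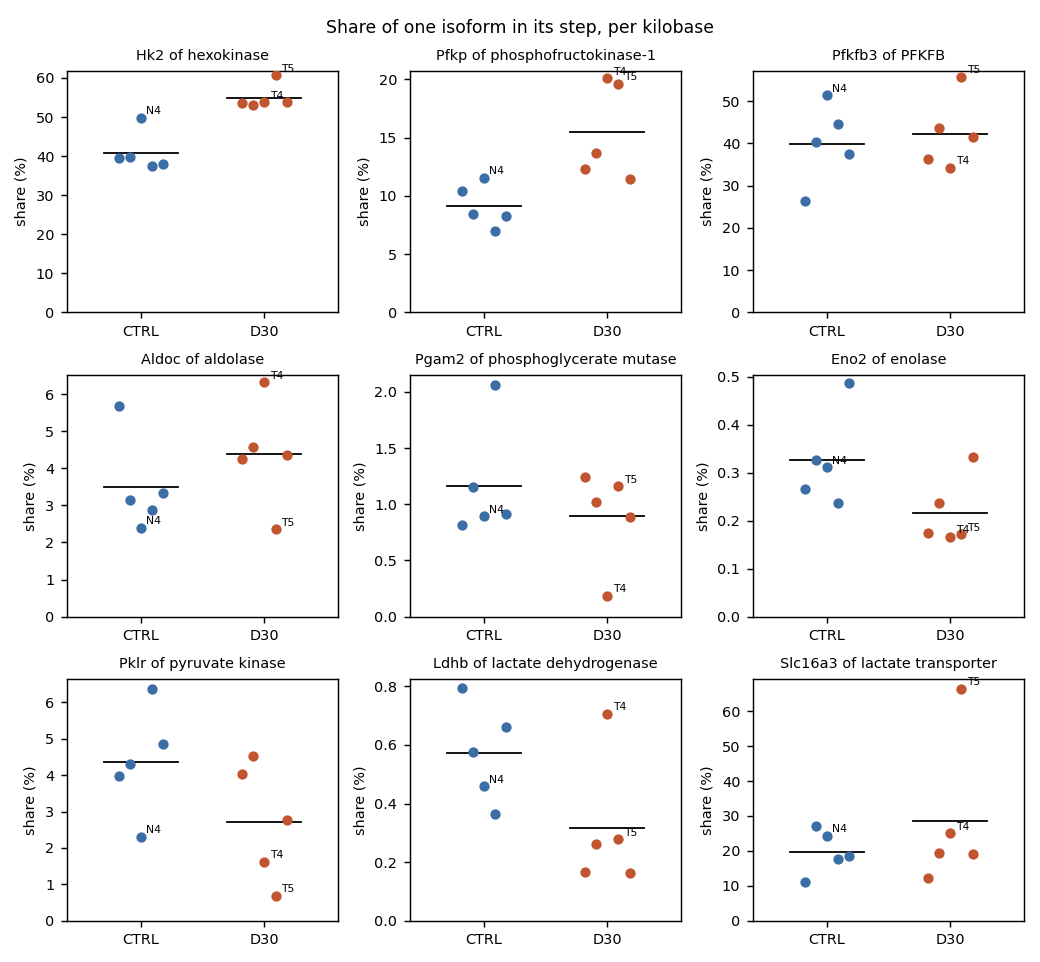
Share of 1 isoform in its step, in percent of the summed normalized counts per kilobase of exon, 1 point per tumor with the group mean as a bar (5 tumors per group, axes from 0). Hk2 is the only one of the 9 shares without overlap, at 37.5 to 49.8% in CTRL and 53.0 to 60.7% in D30.

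Per kilobase of exon, Gapdh was the highest member in both groups (20401 ± 5795 normalized counts per kilobase in CTRL and 37812 ± 26526 in D30, SD, n = 5), followed by Bsg (13012 ± 2521 and 29431 ± 10638). Tpi1, Ldha, Pkm, Aldoa and Pgk1 came next in both groups, between 7411 and 9428 in CTRL and between 15781 and 20112 in D30. In either group these 5 lay within their spread of each other. Gpi1 stood at 2228 ± 632 and 4666 ± 2182, above each isoform of hexokinase and phosphofructokinase. Of the isoforms at those steps Pfkl was the highest in both groups (864 ± 314 and 2063 ± 1275). Hk2 (604 ± 245 and 1568 ± 1100) lay within its spread of Hk1 (664 ± 146 and 967 ± 559) in CTRL. Eno2, at 18.3 ± 5.15 and 17.2 ± 7.81, was the lowest member in both. 

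The tumors of a group did not share 1 level. T5 was the highest of all 10 tumors in 22 of the 32 genes, and N4 was the highest CTRL tumor in 16. T4 was the lowest D30 tumor in 19, and the lowest of all 10 in 7. The 32 genes together took 0.857 to 1.44% of all reads in CTRL, where N4 was highest, and 0.938% in T4, 1.50% in T2, 1.51% in T1, 1.77% in T7 and 3.19% in T5. Without T5 limma called 5 members (Galm, Aldoc, Pgk1 and Bsg higher, Eno3 lower) against 3.54% of all genes. Without T4 it called 11, all higher, against 6.43%, with Hk2, Gpi1, Pfkl, Pfkp, Aldoa and Tpi1 added to the 5. Without T4 and T5 it called 15 against 9.97%, of which 12 were higher and Pfkfb1, Bpgm and Eno3 lower.

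**Figure D4:**
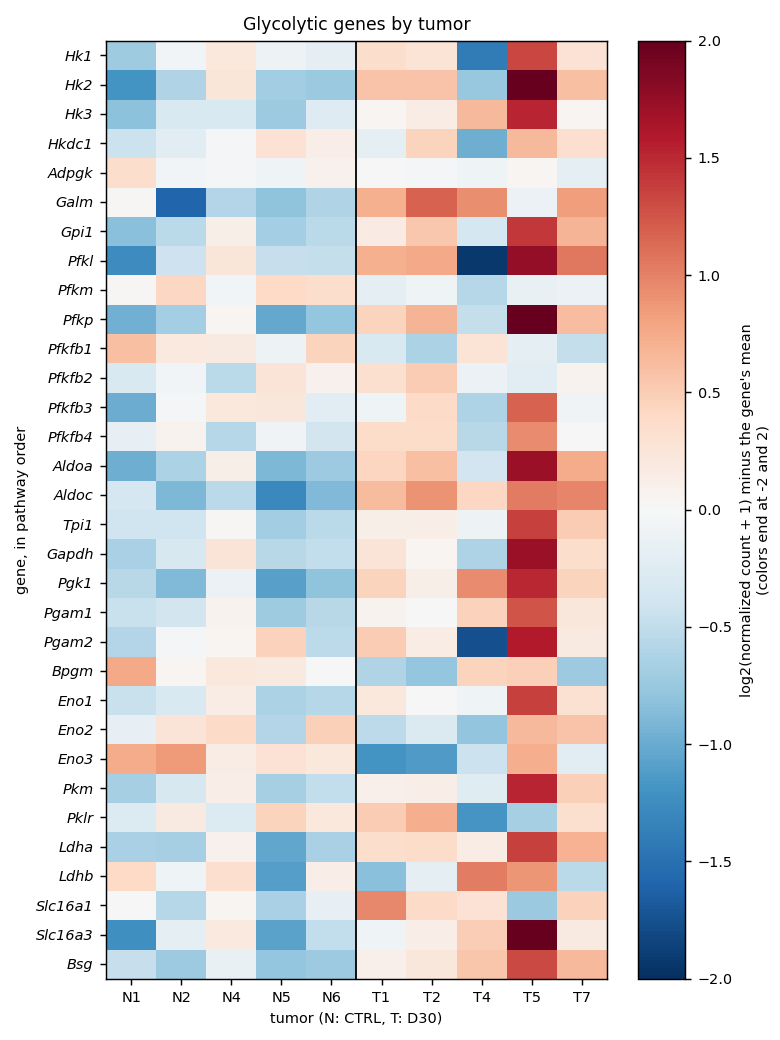
Deviation of log2(normalized count + 1) from each gene's mean over the 10 tumors, for the 32 genes in pathway order, with CTRL left and D30 right of the line. T5 is high in most rows, and T4 is low at Hk1, Hk2, Pfkl, Pgam2 and Pklr but high at Galm, Pgk1, Pgam1 and Bsg.

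T4 followed no single order along the chain. It was the lowest of all 10 tumors for Hk1, Hkdc1, Pfkl, Pfkm, Pgam2, Eno2 and Pklr, and second lowest for Hk2, Pfkfb3, Pfkfb4 and Gapdh. It was second highest for Galm, Hk3, Pgk1, Pgam1 and Slc16a3 and the highest for Ldhb.

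A further list held 33 genes of glycolysis, gluconeogenesis, and glucose, pyruvate and lactate transport, with the transcription factors Hif1a, Arnt and Myc. Of these, 31 were tested and none passed limma's test. An unadjusted limma p under 0.05 was found for 7 of the 31, and for 17.3% of all genes. edgeR called 0 of the list and DESeq2 3, against 4.13% and 8.17% of all genes they tested. The log2 fold changes of the 31 had a median of 0.24, and 20 were positive and 11 negative. Slc2a1, the main glucose transporter of tumors, came closest. It stood at 2324, 3045, 6206, 2532 and 2772 normalized counts in CTRL and 6383, 7054, 7325, 30003 and 6947 in D30. All D30 tumors exceeded all CTRL tumors, though N4 came close to T1. The log2 fold change was 1.56 (SE 0.41, unadjusted p = 0.00223, adjusted p = 0.0635). Slc2a1 passed limma's test without T4 (adjusted p = 0.0351) and without T5 (1.14, adjusted p = 0.0392). Pdk1, which holds pyruvate back from the mitochondrion, had a log2 fold change of 0.52 (SE 0.19, adjusted p = 0.166), and Gckr, the glucokinase regulator, one of 1.18 (SE 0.42, adjusted p = 0.169). Pgk2 and Ldhc, both known from testis, fell under the filter on low values.

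HIF target genes outside glycolysis also stood higher in D30. All 16 of the list had a positive log2 fold change, with a median of 1.17, and 4 passed limma's test, against 2.76% of all genes. These were Car9, a carbonic anhydrase of the cell surface (log2 fold change 1.75, SE 0.34, adjusted p = 0.0153), Ankrd37 (1.62, SE 0.31, adjusted p = 0.0141), the oxygen sensor Egln3 (1.66, SE 0.37, adjusted p = 0.0323) and the stress-induced Ddit4 (1.14, SE 0.27, adjusted p = 0.0449). All 4 also passed without T5. Of the 16, edgeR called 7 and DESeq2 11, against 4.13% and 8.17% of all genes they tested. The median deviation of the 16 genes from their means over the 10 tumors had the sign of that of the 32 glycolytic genes in all tumors but N4 and T4. It was -0.78 to -0.56 in N1, N2, N5 and N6, -0.091 in N4, 0.17 to 0.38 in T1, T2, T4 and T7, and 2.04 in T5. The glycolytic genes stood at -0.64 to -0.31 in the same 4 CTRL tumors, at 0.079 in N4, at -0.18 in T4, at 0.19 to 0.33 in T1, T2 and T7, and at 1.29 in T5. N4 was thus the CTRL tumor nearest to D30 for both lists, and T4 was on the D30 side for the HIF list only. Hif1a itself stood at 3814 to 5290.0 normalized counts in CTRL and 2647 to 8633 in D30 (log2 fold change -0.048, SE 0.31, adjusted p = 0.957).

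**Figure D5:**
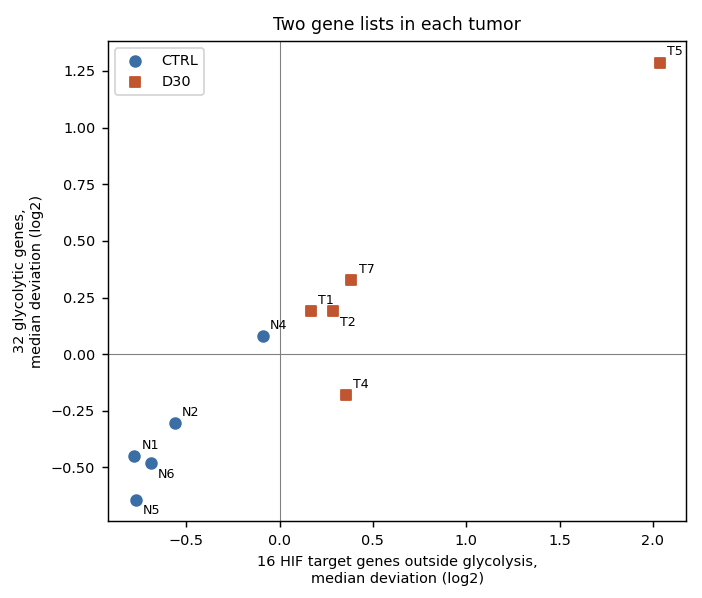
Median deviation per tumor, in log2 units from each gene's mean over the 10 tumors, of the 16 HIF target genes (horizontal) and the 32 glycolytic genes (vertical). T5 lies at 2.04 and 1.29, far from the rest, and T4 at 0.35 and -0.18.

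Markers of other cell types also differed between the groups. The 8 markers of tumor epithelium summed to 224679 to 355284 normalized counts in CTRL and 377561 to 500428 in D30, without overlap, and again N4 was the highest CTRL tumor. None of the 8 was called by limma or edgeR, and 2 were by DESeq2. They did not move together, as 7 had a positive log2 fold change, with Sox9 near 0 (0.14, adjusted p = 0.941). Epcam went the other way (log2 fold change -3.17, limma adjusted p = 0.099, and 0.00902 without T4). The 6 endothelial markers summed to 11088 to 17629 and 5220 to 9041, also without overlap. Cdh5 was the largest part of these sums, at 7205 to 14529 in CTRL and 2480 to 6142 in D30. It was called lower (log2 fold change -1.45, adjusted p = 0.0117). All 6 log2 fold changes were negative, but Pecam1, Kdr, Tek, Emcn and Egfl7 each overlapped between the groups and were not called. Tek had the higher mean in D30 (299 against 266). Of the 8 macrophage markers 7 had negative log2 fold changes (median over all 8 of -0.80), and Csf1r was called lower (log2 fold change -1.06, adjusted p = 0.0449). All 9 islet and neuroendocrine markers had negative log2 fold changes (median -2.84), and limma called Ins1, Gcg, Ppy and Iapp lower, while edgeR called 0 of the 9 and DESeq2 6. Their sums were 48.7 to 1561 in CTRL, highest in N2 and N6, and 17.2 to 107 in D30. All 8 fibroblast markers had negative log2 fold changes (median -0.86, none called by limma or edgeR, 2 by DESeq2 and 6 with an unadjusted limma p under 0.05). The 10 acinar markers summed to 30746 in N2 and 67790 in N6 and to 144 to 6919 in the other 8 tumors. In bulk tumors fewer cells of a type and less RNA per cell cannot be told apart, and the part of cell composition in the glycolytic genes was not tested.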

How the data were processed

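RNA was taken from 5 CTRL and 5 D30 orthotopic KPC tumors, and strand-specific libraries were prepared. Per the labels and methods, the authors trimmed the reads, aligned them with STAR (2.7.0e) and used DESeq2. The labels name GRCm39 and the methods hg38, while the table lists mouse Ensembl identifiers. The methods also list RSEM, and how reads were counted per gene, with which settings and by strand or not, is not given in the sources used here. For each gene the authors deposited a normalized signal in every tumor, in the form of a read count scaled by that tumor's size factor. Undoing that factor gave whole reads for 100.0% of values (within 0.1 of a read; whether these are rounded RSEM estimates is not stated), and 29192261 to 42122304 reads per tumor. Columns lettered N were taken as CTRL and, as the remaining group, those lettered T as D30. Column numbers do not match the labels' replicate numbers. Per the methods, male and female mice were used in equal numbers and mice with tumors were randomized to treatment. Which column came from which sex or cage is not given, so that p values measure the spread between these tumors.

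Identifiers were matched to GENCODE M21 (GRCm38), which named 52083 of the 55359 genes (94.1%). limma (3.58.1, R 4.3.3) with a mean-variance trend was fitted to log2(normalized count + 1) of the 24560 genes with a mean of at least 1. Benjamini-Hochberg adjustment ran over all of them, and genes with an adjusted p under 0.05 were called. Fold changes are on this log2 scale, which understates those of low genes. edgeR (4.0.16) and DESeq2 (1.42.0) on the recovered reads, a pseudocount of 0.5, no filter, a mean of at least 10, other scalings and leaving out tumors were the alternatives. Scripts were tested on simulated data. Isoform shares used normalized counts per kilobase of exon union and two-sided exact permutation tests over tumors.

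The 32 members, the shares and the further gene lists were chosen with earlier results of these data known. Per-tumor values were given for members that were called, did not overlap or had an unadjusted p under 0.05, and for both isoforms of a share with p under 0.05. Values of single tumors for Gapdh, Bpgm and Slc16a1 were added after they were seen. The remaining members are given by mean or range. Of the further lists, the called genes or those with the 3 smallest p values were named, and other genes named beside them were chosen after their values were seen. Tf and Ahsp of the marker lists had no match by name.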

Additional observations from a re-analysis of the deposited data

Results flagged for a closer look

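In 11 of 82 groups of 5 tumors (32 genes and 9 shares, each in both conditions) the highest or lowest tumor stood apart, its gap to the nearest tumor exceeding 0.71 of the group's range, on the log2 scale for genes and in percent for shares. Chance alone flags about 1 in 20 groups. In D30, T5 was far above for Eno1 (73149 normalized counts) and Slc16a3 (5634), for the share of Hk2 in hexokinase (60.7%) and for the share of Slc16a3 in the transporter pair (66.4%). T4 was far below for Pfkl (1999.8) and Pfkm (1349.8), and above for the share of Ldhb in lactate dehydrogenase (0.705%). In CTRL, N1 was far above for Bpgm (1895) and for the share of Aldoc in aldolase (5.69%), N4 for the share of Hk2 (49.8%) and N5 for the share of Pgam2 (2.06%). T4 or T5 accounted for all 7 of the D30 groups, beside the marker values of these tumors given above, and their cause was not tested.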

How the results depend on the processing

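The direction of the members' median log2 fold change was positive under every alternative run, from 0.49 under library-size scaling and without T5 to 0.85 without N4. A scaling by library size moved the median of all genes from -0.065 to -0.27 and by the upper quartile to -0.21, with the members' medians at 0.49 and 0.55, and the calls over all genes went from 50.7% higher to 27.8% and 35.5%. With edgeR 64.6% were higher. Over all genes 678 were called by limma, 1833 by DESeq2, 1573 without T4, 2418 without T4 and T5, and 279 without N2.

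The 5 called members became 3 without a filter (Galm, Aldoc and Pgk1), 3 under library-size scaling (Aldoc, Pgk1 and Bsg), 13 with DESeq2 and 15 without T4 and T5 (12 higher and 3 lower). Leaving out 1 tumor gave 1 to 11 called members, 1 to 11 higher and 0 to 1 lower. Only Aldoc was called without N2, N5 or N6, only Aldoc and Pgk1 without T7, and 3 without N1, T1 or T2. Fewer tumors were tested in these fits. 

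The share of Pfkp differed by 3.34 percentage points without T4 and T5 (p = 0.0714, exact permutation test). With longest transcripts as lengths the share of Eno2 differed by -0.0971 (exact permutation p = 0.0397), and by -0.138 to -0.0685 when 1 tumor was left out. The share of Ldhb differed by -0.353 to -0.20 when 1 tumor was left out and by -0.373 without T4 and T5. The share of Pfkfb3 ranged from -1.11 to 5.15, negative without N1 or T5, and that of Slc16a3 from -0.837 to 12.7, with -2.87 without T4 and T5. The cause was not tested.

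Uncalled members near 0 changed sign. Under library-size scaling these were Hkdc1 (-0.12), Pfkfb2 (-0.0041) and Ldhb (-0.084), and under upper-quartile scaling Hkdc1 (-0.053) and Ldhb (-0.023). Pklr was at 0.037 with edgeR and 0.025 with DESeq2, and without T4 and T5 at 0.46, where Ldhb was at -0.45. With 1 tumor left out Hkdc1 ranged from -0.042 to 0.37, Pgam2 from -0.10 to 0.73, Eno2 from -0.34 to 0.021, Pklr from -0.31 to 0.17 and Ldhb from -0.12 to 0.36.

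No paired analysis was possible because the columns of the table carry no replicate numbers of the labels.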
